A study of Mus musculus with 6 samples.

Results

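The genes described here encode the enzymes that make cholesterol and fatty acids, with the regulators that switch them and the transporters they control. The set has 37 members, chosen by pathway, and every member was matched through RefSeq accessions to probes on the array, 51 in all. They were measured in the trunk of mouse embryos at embryonic day 9.5, a dissection bounded in front by the otic vesicle and behind by somite 15, forelimb buds included. Wild-type embryos (3 arrays) were set against Arid3b-null embryos (3 arrays), which lack Arid3b, a DNA-binding protein of the ARID family. Each array carried RNA pooled from 4 embryos, 24 embryos in all, so the spread within a group is the spread between pools. How the null allele was made and the strain are not given in the sources used here. Every member had a probe well above background on all 3 arrays of a group, and all 37 were tested among 19792 genes.

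Cells build cholesterol from acetyl-CoA by way of mevalonate, isoprenoid phosphates, squalene and lanosterol, and the isoprenoid intermediates also feed ubiquinone, dolichol and protein prenylation. Transcription of these enzymes is driven by sterol regulatory element-binding proteins (SREBPs, from Srebf1 and Srebf2). The sterol-sensing escort Scap carries SREBPs out of the endoplasmic reticulum, and the Insig proteins hold them there. Liver X receptors (LXRs, Nr1h2 and Nr1h3) respond to oxysterols and raise cholesterol export and fatty acid synthesis. In the embryo, cholesterol is needed for membranes and is attached to Hedgehog proteins.

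All levels are log2 of the array signal relative to the array's 75th percentile, so 0 is the level of a spot at that percentile, and differences are Arid3b-null minus wild type on the same log2 scale. A gene is said to have risen or fallen where its Benjamini-Hochberg adjusted p in a limma fit over all tested genes was under 0.05. The 75th percentile lay between 611.2 and 844.4 signal units and 60.7% to 68.1% of probes were well above background. Arid3b itself, on its brightest probe, read 2.18, 2.57 and 1.97 in wild type and 0.54, 0.65 and 0.46 in Arid3b-null, leaving 31.0% of the wild-type signal, and its other probes were lower too, though each cleared background on only 2 of the 3 arrays of Arid3b-null pools. Trunk Hox genes (Hoxb4, Hoxc4, Hoxc5, Hoxc6) were well above background on every array, and of the forebrain markers Six3 was not above background on any array, while Emx2 was on all of them. In bulk RNA, fewer cells of a type and less RNA per cell cannot be told apart.

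Transcripts of cholesterol synthesis were lower in the Arid3b-null trunks along almost the whole pathway. Of the 37 members 22 fell (59.5%) and 1 rose, where 12.9% of all genes tested fell and 13.6% rose. The median difference over the members was -0.54, against -0.039 over all genes tested, and the medians within the 3 slides, each of which carried 1 wild-type and 1 Arid3b-null array, were -0.50, -0.61 and -0.45. Among the 19 enzymes of cholesterol synthesis 16 fell and 0 rose (84.2% against the 12.9%), with a median of -0.74, and those that fell kept between 38.6% and 73.9% of the wild-type signal. Among 8 fatty acid synthesis enzymes 4 fell, with a median of -0.41. For 26 members (70.3%) wild-type and Arid3b-null values did not overlap, as for 46.2% of all genes tested. Without wild type replicate 1 the 22 became 11, the 16 became 9 and the 4 became 1, while 6.08% of all genes fell. Without wild type replicate 2 they became 13, 10 and 2, while 8.24% of all genes fell. These counts come from a fit that ignores the slide. With a term for the slide (the replicate block) they were 19, 14 and 4 on all 6 arrays, while 11.9% of all genes fell. The count of members that fell was 0 under normexp, a model-based background correction, with the background of each single spot. There 0 of all genes tested fell, although 32 of 37 members were negative with a median of -0.53 against -0.22 over all genes.

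**Figure D1:**
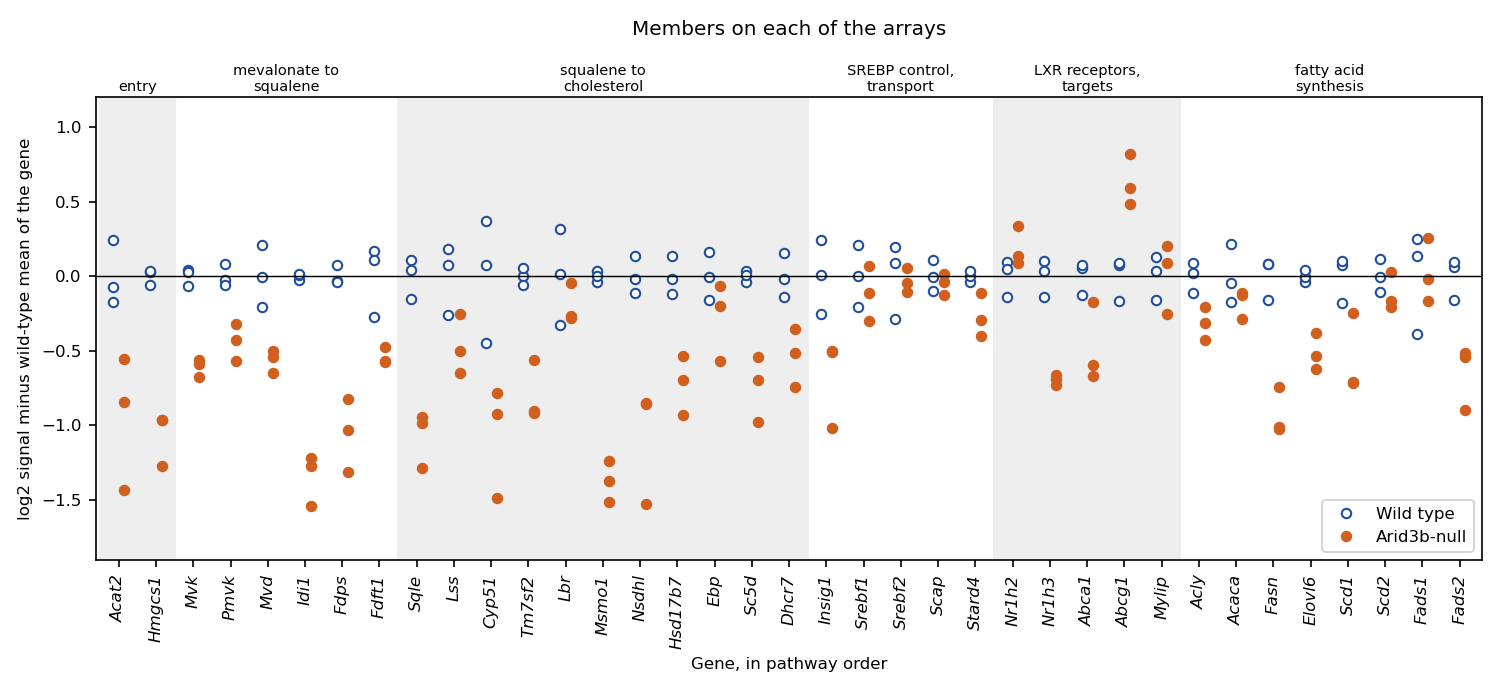
Each point is 1 array, as log2 signal minus the mean of the 3 wild-type arrays for that gene, with wild type as open circles and Arid3b-null as filled circles, and genes in pathway order. The Arid3b-null points lie below all wild-type points for 16 of the 19 cholesterol synthesis enzymes, and mix with the wild-type points for Srebf1, Srebf2 and Scap. Over all genes tested, the groups did not overlap, in either direction, for 46.2%.

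Markers of other cell types moved in the same comparison, and their part in these differences was not tested. All 6 neuron markers fell, and their summed level (log2) ranged from 2.77 to 3.11 in wild type and from 0.38 to 0.66 in Arid3b-null. Of 8 markers of hepatic and yolk sac endoderm 5 fell and 0 rose, with summed levels of 3.73 to 4.04 against 3.21 to 3.56. Of 5 primitive erythroid markers 1 fell, with sums of 6.75 to 6.89 against 6.42 to 6.58, and of 6 surface epithelium markers 3 rose, with sums of 4.73 to 5.32 against 5.87 to 6.09. Somite and forelimb mesenchyme sums overlapped between the groups (3.97 to 4.10 against 3.77 to 4.05, and 3.06 to 3.10 against 2.94 to 3.08), each with 1 of 4 markers lower, as did those of endothelium (2.56 to 3.20 against 2.34 to 2.75), heart muscle (2.30 to 3.62 against 1.08 to 3.50) and macrophages (0.38 to 1.01 against -0.47 to 0.62). No heart muscle marker passed, but the endothelial gene Tie1 rose by 0.60, and of 3 macrophage markers Cx3cr1 fell by 2.96, being well above background on 3 wild-type arrays and 1 Arid3b-null array (limma adjusted p = 0.0281 and 0.00390). Neural tube progenitor sums were 1.65 to 1.73 against 1.42 to 1.53, with 1 of 4 markers lower. Every one of these markers was well above background on at least 1 array.

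Both enzymes at the entry to the pathway fell, where 12.9% of all genes tested fell. Acat2, the cytosolic thiolase that joins acetyl-CoA units, read -1.45, -1.35 and -1.03 on the wild-type arrays and -1.83, -2.71 and -2.12 on the Arid3b-null arrays. The groups did not overlap, with the Arid3b-null arrays spread over a wider range, and Acat2 fell by 0.94 ± 0.24 (SE, limma adjusted p = 0.0302). Hmgcs1, the synthase that makes HMG-CoA, read 4.25, 4.33 and 4.34 in wild type and 3.35, 3.34 and 3.04 in Arid3b-null. The wild-type arrays were nearly equal and all Arid3b-null arrays lay below them, a fall to 47.8% of the wild-type signal (limma adjusted p = 0.00234). The Hmgcs1 call held whichever array was left out, whereas that of Acat2 was lost without any 1 array except Arid3b-null replicate 1 (adjusted p = 0.0502 to 0.0841).

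The 6 enzymes from mevalonate to squalene all fell, where 12.9% of all genes tested fell. Idi1, which isomerises isopentenyl diphosphate, read 1.99, 2.02 and 2.03 in wild type and 0.80, 0.74 and 0.47 in Arid3b-null. Its wild-type arrays were nearly equal, and the difference was -1.34 ± 0.12 (SE, limma adjusted p = 0.00109), which left 39.5% of the signal. Fdps, the farnesyl diphosphate synthase at the branch point to prenylation, dolichol and ubiquinone, read 3.91, 3.91 and 4.02 against 3.12, 2.64 and 2.92. All Arid3b-null arrays were lower, with a fall to 48.2% (limma adjusted p = 0.00405).

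The kinases and the decarboxylase of this stretch fell less. Mvk, mevalonate kinase, read 3.50, 3.49 and 3.40 in wild type and 2.87, 2.90 and 2.79 in Arid3b-null. The groups were tight and separate, 65.6% of wild type remaining (limma adjusted p = 0.00677), and the other Mvk probe differed by -0.59. Pmvk, phosphomevalonate kinase, read 3.22, 3.33 and 3.19 against 2.82, 2.92 and 2.68. That is 73.9% of wild type, the smallest fall among the called members (limma adjusted p = 0.0300), with -0.48 on its other probe. Mvd, which decarboxylates mevalonate diphosphate, read 1.38, 1.60 and 1.18 against 0.89, 0.74 and 0.85. Fdft1, squalene synthase and the step that commits farnesyl units to sterols, read 1.29, 1.23 and 0.85 against 0.65, 0.56 and 0.55. Both had wild-type arrays that spread more than the Arid3b-null arrays without overlap, and fell to 67.6% and 68.8% (limma adjusted p = 0.0245 and 0.0339). The calls of Mvd and Fdft1 were lost without any 1 array except wild type replicate 3 (adjusted p = 0.0544 to 0.0774 and 0.0684 to 0.112) and with median scaling (0.0534 and 0.0663), and that of Pmvk without any 1 array except Arid3b-null replicate 2 (0.0564 to 0.0896) and with median scaling (0.0740).

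In the stretch from squalene to cholesterol 8 of 11 enzymes fell and 0 rose, where 12.9% of all genes tested fell and 13.6% rose. Msmo1, the methylsterol monooxygenase that starts the removal of methyl groups from the sterol ring, had the largest difference of all 37 members. It read 2.60, 2.67 and 2.64 in wild type and 1.40, 1.27 and 1.13 in Arid3b-null. The difference of -1.37 ± 0.11 (SE, limma adjusted p = 0.000795) left 38.6% of the wild-type signal and far exceeded the spread within either group. Nsdhl and Hsd17b7 act with Msmo1 in the same demethylation. Nsdhl read -0.65, -0.80 and -0.90 against -1.64, -2.31 and -1.64, and Hsd17b7 read -0.73, -0.88 and -0.99 against -1.57, -1.80 and -1.40. Neither gene's groups overlapped, and they fell to 47.3% and 60.7% (limma adjusted p = 0.0116 and 0.0125). The other Nsdhl probe differed by -0.61 and did not pass (adjusted p = 0.0560 over all probes), while the other Hsd17b7 probe passed at -0.76. The Hsd17b7 call was lost without wild type replicate 1 (adjusted p = 0.0510).

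Sqle, squalene epoxidase and a rate-controlling oxygenase of the pathway, read 2.93, 3.20 and 3.13 in wild type and 2.14, 2.10 and 1.80 in Arid3b-null. It fell to 47.6% with clearly separate groups (limma adjusted p = 0.00326). Lss, which cyclises the epoxide to lanosterol, read -0.62, -0.51 and -0.95 against -1.19, -1.34 and -0.94. Its groups overlapped, because the arrays of the third slide were level, and its difference of -0.47 ± 0.16 did not pass (limma adjusted p = 0.0782); it passed without wild type replicate 3 (adjusted p = 0.0478). Cyp51, the cytochrome P450 that demethylates lanosterol, read -0.87, -1.17 and -1.69 in wild type and -2.73, -2.17 and -2.02 in Arid3b-null. These were the widest wild-type values of any called member, and the fall to 47.8% (limma adjusted p = 0.0283) was uneven across slides, from -1.86 on the first to -0.33 on the third. The Cyp51 call was lost with the replicate block, a term for the slide that paired arrays share (adjusted p = 0.0608) and without either array of replicate 1 or of replicate 2 (0.0626 to 0.0830).

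Tm7sf2 and Lbr are alternative sterol reductases for the step after Cyp51, Lbr being also the lamin B receptor of the nuclear envelope. Tm7sf2 read 1.48, 1.54 and 1.42 in wild type and 0.92, 0.56 and 0.58 in Arid3b-null. It fell to 57.6% (limma adjusted p = 0.00711), and its other probe passed at -0.61. Lbr read 1.87, 2.17 and 1.52 against 1.58, 1.57 and 1.81, with the groups mixed and a difference of -0.20 ± 0.18 that did not pass (limma adjusted p = 0.462). Ebp, the sterol isomerase that follows, was likewise mixed, at 3.09, 3.26 and 2.94 against 2.90, 3.03 and 2.53, with a difference of -0.28 ± 0.16 (limma adjusted p = 0.257).

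The last steps fell. Sc5d, the sterol desaturase that makes the direct precursor of the final step, read -0.24, -0.17 and -0.19 in wild type and -0.89, -0.74 and -1.18 in Arid3b-null. That is 59.9% of wild type (limma adjusted p = 0.0105), a difference several times the wild-type spread. Dhcr7, the reductase that yields cholesterol and is mutated in Smith-Lemli-Opitz syndrome, read -0.37, -0.19 and -0.49 against -0.86, -1.09 and -0.70. Its groups did not overlap and it fell to 69.0% (limma adjusted p = 0.0350). The Dhcr7 call was lost with the replicate block (adjusted p = 0.0734), with median scaling (0.0618) and without either array of replicate 1 or of replicate 2 (0.0792 to 0.0984).

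**Figure D2:**
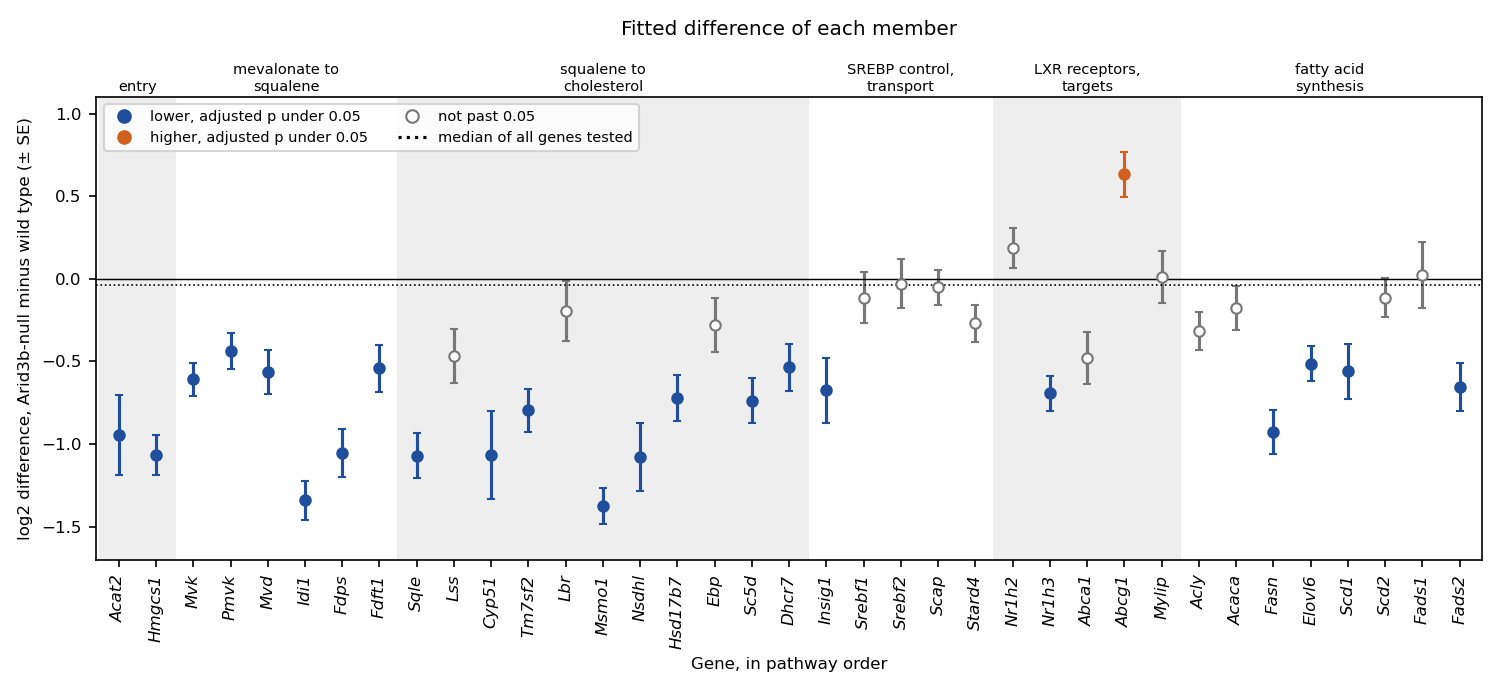
The fitted log2 difference, Arid3b-null minus wild type, is plotted for each member with its standard error as bars, filled where the adjusted p was under 0.05, and the dotted line is the median of all genes tested at -0.039. Blue points below 0 run from Acat2 to Insig1, broken by Lss, Lbr and Ebp, and return at Nr1h3, Fasn, Elovl6, Scd1 and Fads2, and Abcg1 is the only called point above 0.

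Of the SREBP genes themselves, Srebf1, Srebf2 and Scap did not pass. Srebf1 read -2.31, -1.89 and -2.10 in wild type and -2.21, -2.03 and -2.40 in Arid3b-null, with the groups mixed and a difference of -0.11 ± 0.15 (limma adjusted p = 0.622). Srebf2, which encodes the family member most tied to cholesterol genes, read -0.13, -0.03 and -0.50 against -0.26, -0.32 and -0.16. Its difference was -0.03 ± 0.15 (limma adjusted p = 0.902), and its other probe gave 0.06. The escort gene Scap differed by -0.05 ± 0.11 (limma adjusted p = 0.756). A p above the threshold does not show equal levels, and SREBP activity depends on protein cleavage that arrays do not measure.

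Insig1, which retains Scap in the endoplasmic reticulum and is itself an SREBP target, read -1.64, -1.38 and -1.14 in wild type and -1.89, -1.89 and -2.41 in Arid3b-null. It fell to 62.6% without overlap (limma adjusted p = 0.0453), close to the threshold. Its call was lost with the replicate block (adjusted p = 0.0838) and whichever array was left out (0.0560 to 0.114). Insig2, the related retention gene and no member of the set, was higher by 0.60 ± 0.11 (limma adjusted p = 0.00927), so the pair differed in direction, though the difference between them was not tested. Stard4, a carrier of cholesterol between membranes, read 0.42, 0.46 and 0.50 against 0.17, 0.35 and 0.06. Its arrays did not overlap, but the difference of -0.27 ± 0.11 did not pass (limma adjusted p = 0.124). It passed at -0.43 when the probes of a gene were averaged (adjusted p = 0.0305).

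The LXR genes and their targets went in different directions. Nr1h3, the receptor LXR-alpha of liver and macrophages, read -2.53, -2.47 and -2.71 in wild type and -3.25, -3.23 and -3.30 in Arid3b-null. It fell to 61.9% with tight groups (limma adjusted p = 0.00601), its other probe passed at -0.58, and the call held whichever array was left out. Of the macrophage markers Cx3cr1 was lower while Csf1r and Adgre1 did not pass (-0.74 and 0.03). Of 8 markers of hepatic and yolk sac endoderm 5 fell and 0 rose. The part of either cell type in the Nr1h3 difference was not tested. Nr1h2, the widely expressed LXR-beta, read 3.06, 3.01 and 2.83 against 3.30, 3.05 and 3.10. The groups overlapped and the difference of 0.19 ± 0.12 did not pass (limma adjusted p = 0.300).

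Among the LXR targets Abcg1, a cholesterol exporter, was the only member that rose. It read -2.40, -2.15 and -2.14 in wild type and -1.74, -1.41 and -1.63 in Arid3b-null. The rise of 0.63 ± 0.14 (SE, limma adjusted p = 0.0173), to 155% of wild type, was lost without wild type replicate 1 (adjusted p = 0.0644), and the difference was -0.0412 under normexp with spot backgrounds. Abca1, the exporter to apolipoprotein A-I, read -1.46, -1.64 and -1.44 against -2.19, -1.68 and -2.11. Its difference of -0.48 ± 0.16 did not pass (limma adjusted p = 0.0683) although the groups did not overlap, and it passed at -0.63 without Arid3b-null replicate 2 (adjusted p = 0.0263). Mylip, the ligase that degrades lipoprotein receptors, had mixed groups and a difference of 0.01 ± 0.15 (limma adjusted p = 0.966).

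Fatty acid synthesis was lower at some steps. The supply of carbon did not pass: Acly, which makes cytosolic acetyl-CoA, read 4.52, 4.72 and 4.65 in wild type and 4.31, 4.42 and 4.20 in Arid3b-null, a difference of -0.32 ± 0.11 without overlap (limma adjusted p = 0.0835). Acaca, the carboxylase that makes malonyl-CoA, differed by -0.18 ± 0.13 with overlapping arrays (limma adjusted p = 0.371). Fasn, the fatty acid synthase, read -0.57, -0.56 and -0.81 against -1.66, -1.67 and -1.39. All its Arid3b-null arrays lay well below wild type, a fall to 52.6% (limma adjusted p = 0.00447) that held whichever array was left out.

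Elovl6, which lengthens palmitate, read 2.28, 2.30 and 2.36 in wild type and 1.93, 1.69 and 1.78 in Arid3b-null. It fell to 70.1% (limma adjusted p = 0.0160), a call lost without wild type replicate 1 (adjusted p = 0.0559). The desaturases were uneven. Scd1, which makes monounsaturated fatty acids, read 0.04, 0.06 and -0.22 against -0.29, -0.76 and -0.75 and fell to 67.9% (limma adjusted p = 0.0490). That call was at the edge and was lost without any 1 array except Arid3b-null replicate 1 (adjusted p = 0.0585 to 0.139), with median scaling (0.0648) and under normexp with array-median backgrounds (0.0746). Scd2, the related form prominent in embryos and brain, differed by -0.12 ± 0.12 with mixed groups (limma adjusted p = 0.507).

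Fads2, the desaturase that opens the route to long polyunsaturated fatty acids, read -2.04, -2.00 and -2.26 in wild type and -2.64, -2.61 and -3.00 in Arid3b-null. It fell to 63.6% (limma adjusted p = 0.0199), a call lost without wild type replicate 1 or 2 (adjusted p = 0.0718 and 0.0620). Fads1, its partner further along the route, differed by 0.02 ± 0.20 with mixed groups (limma adjusted p = 0.945). Across the 37 members, 11 calls held whichever array was left out, those of Hmgcs1, Mvk, Idi1, Fdps, Sqle, Tm7sf2, Msmo1, Nsdhl, Sc5d, Nr1h3 and Fasn. All 11 were lost under normexp with spot backgrounds, where 2 genes in all were called, 0 of them lower, and Arid3b did not pass either. The share of all genes whose calls held in every such fit with 1 array left out was not counted.

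Where a member had several tested probes, they mostly agreed in direction. Of 11 such members 9 had all probes on the same side of 0, the exceptions being Lbr and Srebf2, whose other probes read 0.01 and 0.06. Of 6 called members with several tested probes, all probes passed in 5 and Nsdhl was the exception.

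Promoter sequences of the members were searched for motifs of factors known to drive these genes, because 16 enzymes fell together. RefSeq windows of GRCm38.p6, from 250 bases before to 50 after an annotated start, matched 29 of the 37 members, with 36 windows. No window was matched for Fdps, Fdft1, Sqle, Stard4, Abcg1, Scd1, Scd2 and Fads1. The windows below are those of the 4 members with the smallest adjusted p that have a window, Msmo1 (chr8:64733529-64733828, minus strand), Idi1 (chr13:8885356-8885655, plus strand), Hmgcs1 (chr13:119690101-119690400, plus strand) and Fasn (chr11:120824498-120824797, minus strand), written 5′ to 3′. Capitals mark CCAAT, the box bound by NF-Y, or ATTGG, the same box on the other strand, and a sterol regulatory element TCACNCCAC.
Msmo1: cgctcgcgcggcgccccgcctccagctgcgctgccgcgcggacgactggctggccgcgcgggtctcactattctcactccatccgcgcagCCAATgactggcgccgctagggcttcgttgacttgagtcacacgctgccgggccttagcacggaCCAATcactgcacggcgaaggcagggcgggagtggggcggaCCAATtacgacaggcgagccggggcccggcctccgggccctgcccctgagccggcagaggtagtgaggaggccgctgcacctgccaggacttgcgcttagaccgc
Idi1: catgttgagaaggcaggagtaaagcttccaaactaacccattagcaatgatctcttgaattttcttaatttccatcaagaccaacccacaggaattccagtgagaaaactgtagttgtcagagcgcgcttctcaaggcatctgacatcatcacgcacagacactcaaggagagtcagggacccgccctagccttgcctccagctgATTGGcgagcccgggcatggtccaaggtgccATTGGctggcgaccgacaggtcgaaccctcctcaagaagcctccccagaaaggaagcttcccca
Hmgcs1: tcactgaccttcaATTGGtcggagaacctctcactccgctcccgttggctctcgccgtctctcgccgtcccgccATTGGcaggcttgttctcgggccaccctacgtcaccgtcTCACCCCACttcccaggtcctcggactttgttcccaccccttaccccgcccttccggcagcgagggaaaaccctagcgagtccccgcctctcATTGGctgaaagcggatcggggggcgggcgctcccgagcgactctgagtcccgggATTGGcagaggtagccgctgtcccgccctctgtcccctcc
Fasn: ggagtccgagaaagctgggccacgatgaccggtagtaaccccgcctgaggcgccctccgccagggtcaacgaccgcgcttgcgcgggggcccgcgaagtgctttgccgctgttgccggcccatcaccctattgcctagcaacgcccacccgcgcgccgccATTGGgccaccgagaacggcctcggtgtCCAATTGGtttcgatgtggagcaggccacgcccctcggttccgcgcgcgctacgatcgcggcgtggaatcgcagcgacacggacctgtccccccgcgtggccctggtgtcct

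Of 16 cholesterol synthesis enzymes with a window, 15 had at least 1 CCAAT box, the exception being Acat2. Over all 36 member windows 61.1% held a CCAAT box, against 37.4% of 32851 mouse promoter windows of the same length. Msmo1 had 3 such boxes, Idi1 had 2, and Hmgcs1 had 4 of them on the other strand. In Fasn an overlapping pair of boxes on opposite strands (CCAATTGG) followed a single one. The box was found in 14 of 18 members that fell and in 7 of 11 that did not, and Lss, Lbr and Ebp, the cholesterol enzymes that did not pass, each had it. The sterol regulatory element was matched in Hmgcs1 alone, starting 137 bases before the annotated start, against 1.24% of all windows. Known elements of other spellings are not covered by these letters.

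The GC box GGGCGG was in 72.2% of member windows against 35.7% of all windows, and in 15 of the 16 cholesterol enzymes, Pmvk being without it. It was found in 14 of 18 members that fell and in 9 of 11 that did not. The E-box CACGTG was in 19.4% of member windows against 7.15%, in Hsd17b7, Sc5d, Dhcr7, Insig1, Scap and Abca1. That box was found in 4 of 18 members that fell and in 2 of 11 that did not. All motifs were searched on both strands, and CACGTG reads the same on each. A match is a run of letters and no measured binding.

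**Figure D3:**
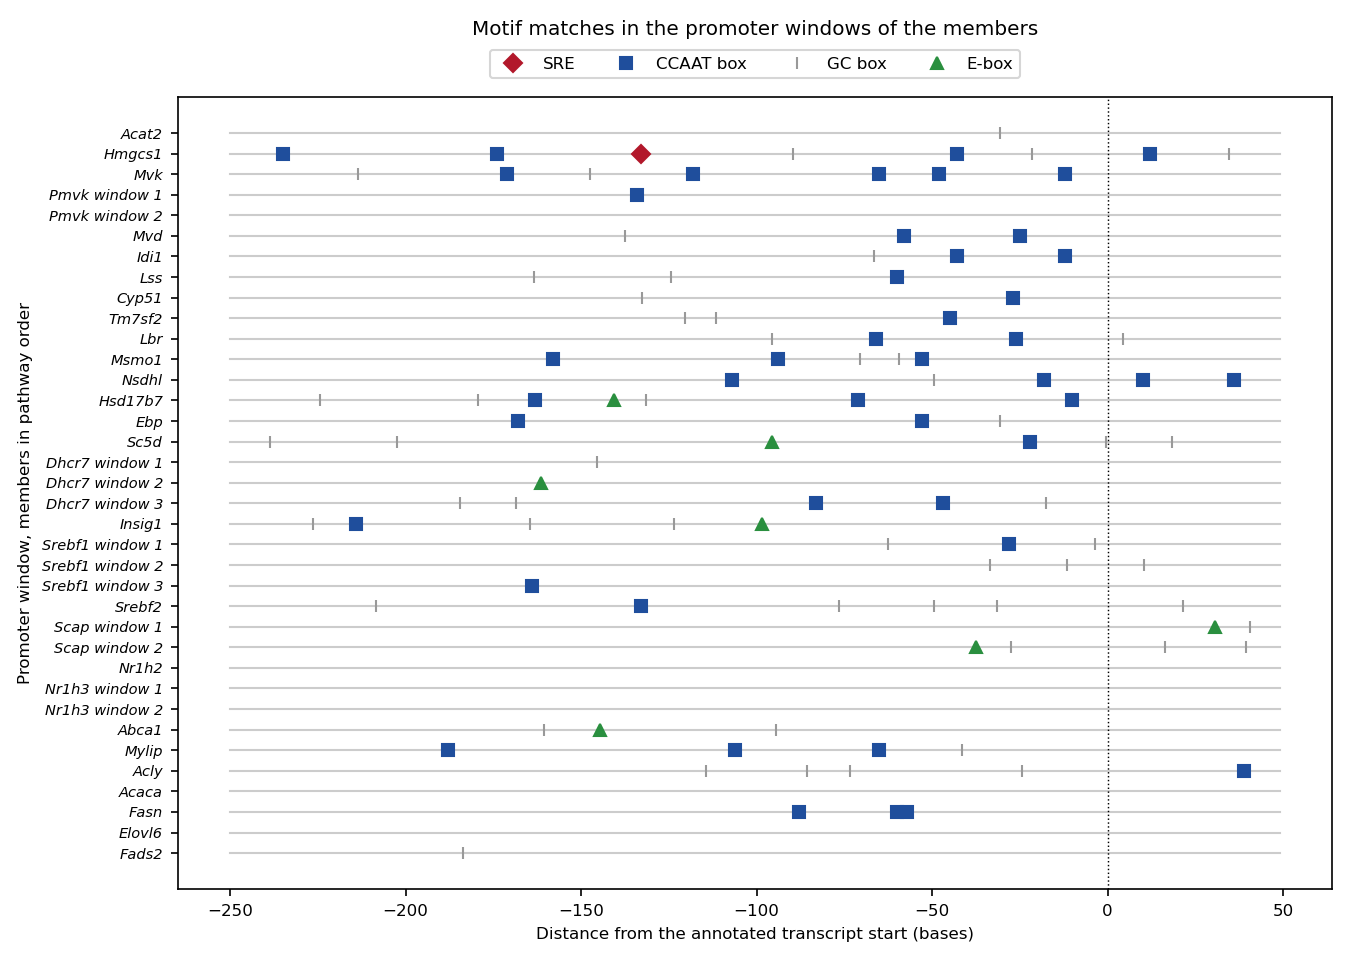
Each line is a promoter window of a member, in pathway order, and symbols mark motif matches on either strand by distance in bases from the annotated transcript start. CCAAT boxes (squares) recur in the windows of 15 of 16 cholesterol enzymes, and the single sterol regulatory element (diamond) lies in Hmgcs1.

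Other genes of lipid metabolism, 105 in all, did not fall as a body. Of 100 tested, 12 fell and 15 rose, close to the 12.9% and 13.6% of all genes tested, and their median was 0.01. Of 9 genes of SREBP processing and sterol sensing Insig2 alone passed. The other 8 of that list did not pass.

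The branches off farnesyl diphosphate held 11 genes, of which 2 fell (18.2%, against 12.9% of all genes tested) and 0 rose. These were Pdss1 and Pdss2, the subunits that make the ubiquinone side chain, lower by 2.06-fold and 1.42-fold (limma adjusted p = 0.00160 and 0.0266). The Pdss2 call was lost without any 1 array except Arid3b-null replicate 3 (adjusted p = 0.0523 to 0.0965) and under normexp with array-median backgrounds (0.0647). Among electron donors to these enzymes and their partners, Cyb5b, an outer mitochondrial cytochrome, was 2.06-fold lower (limma adjusted p = 0.00609).

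Of 10 genes of sterol uptake and transport 4 rose and 1 fell, where 13.6% of all genes rose and 12.9% fell, and their median was 0.26. Vldlr, a lipoprotein receptor, was 7.32-fold higher and Lrp8, its close relative in neurons and brain, 2.50-fold lower (limma adjusted p = 0.000302 and 0.00167). Npc1 and Npc2, which move cholesterol out of lysosomes, were 1.47-fold and 1.43-fold higher (limma adjusted p = 0.0155 and 0.0210). The Npc1 call was lost without wild type replicate 1 (adjusted p = 0.0629), and that of Npc2 when wild type replicate 2 or 3 was dropped, or Arid3b-null replicate 1 or 3 (0.0532 to 0.0624). Npc1 turned to -0.13 under normexp with spot backgrounds.

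Of 7 genes of oxysterols and LXR partners 2 rose and 2 fell (28.6% each, against 13.6% and 12.9% of all genes tested). Apoe, the apolipoprotein and an LXR target, and Rxra, the partner receptor, were 1.92-fold and 1.97-fold higher (limma adjusted p = 0.00353 and 0.00538). The Rxra call was lost when its probes were averaged (0.30, adjusted p = 0.0665), and with spot backgrounds Rxra read -0.0425. Abcg4, an exporter of neural tissue, and Cyp7b1, an oxysterol hydroxylase, were 1.97-fold and 1.47-fold lower (limma adjusted p = 0.00220 and 0.0338). The Cyp7b1 call was lost without any 1 array except Arid3b-null replicate 2 (adjusted p = 0.0662 to 0.0966), with median scaling (0.0618), on the authors' normalized values (0.0571) and under normexp with array-median backgrounds (0.141).

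In the fatty acid lists calls went from 10.5% of those tested in oxidation to 36.4% in elongation and desaturation, against 26.5% of all genes called in either direction. Of 9 genes of supply and further SREBP targets Aacs alone passed, an acetoacetyl-CoA synthetase that was 1.78-fold lower (limma adjusted p = 0.00324). Of 11 genes of elongation and desaturation 2 fell and 2 rose. Elovl2, an elongase of polyunsaturated fatty acids, was 1.66-fold lower and the dehydratase gene Hacd3 1.35-fold lower, while Elovl7 and Hacd1, another elongase and dehydratase, were higher by 0.58 and 0.39 (limma adjusted p = 0.0104, 0.0319, 0.0496 and 0.0443). The Hacd3 call was lost whichever array was left out (adjusted p = 0.0509 to 0.0962), that of Hacd1 without any 1 array except Arid3b-null replicate 3 (0.0779 to 0.132) and that of Elovl7 without any 1 array except wild type replicate 2 (0.0523 to 0.145). With the replicate block Hacd1 and Elovl7 did not pass (adjusted p = 0.0626 and 0.0529), nor did Elovl7 and Hacd3 after quantile normalization (0.0682 and 0.0685), or Hacd1, Elovl7 and Hacd3 with median scaling (0.0955, 0.0703 and 0.0721). Elovl7 also failed on the authors' normalized values (0.0701) and under normexp with array-median backgrounds (0.144), and turned to -0.52 with spot backgrounds.

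Of 19 genes of fatty acid oxidation 2 fell and 0 rose, with a median of -0.04. Hadhb, a subunit of the mitochondrial trifunctional protein, was 1.57-fold lower and Eci1, an enoyl-CoA isomerase, 1.42-fold lower (limma adjusted p = 0.00670 and 0.0425). The Eci1 call was lost without any 1 array except wild type replicate 2 (adjusted p = 0.0774 to 0.110) with the replicate block (0.0514), with median scaling (0.0545), after quantile normalization (0.0579) and on the authors' normalized values (0.0625). Of 17 glycerolipid and lipid droplet genes 6 rose and 0 fell, against the same 13.6% and 12.9%, with a median of 0.21. Of those 6, Lipe was not well above background on every array.

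Fabp3, a fatty acid carrier, was 2.33-fold higher, Hilpda, a lipid droplet protein induced by hypoxia, 1.55-fold and Dgat2, which makes triglycerides, 1.38-fold (limma adjusted p = 0.00403, 0.0108 and 0.0250). Lipe, hormone-sensitive lipase, cleared background on 2 of the 3 wild-type arrays and on all Arid3b-null arrays, so it entered the test through the brighter group and no fold is given (limma adjusted p = 0.0174). It did not pass under normexp with array-median backgrounds (adjusted p = 0.117), turned to -0.71 with spot backgrounds and was lost without Arid3b-null replicate 2 or 3 (0.0579 and 0.0601). Dgat2 was lost with the replicate block (0.0560) and without wild type replicate 1 or any 1 of the Arid3b-null arrays (0.0538 to 0.0944).

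**Figure D4:**
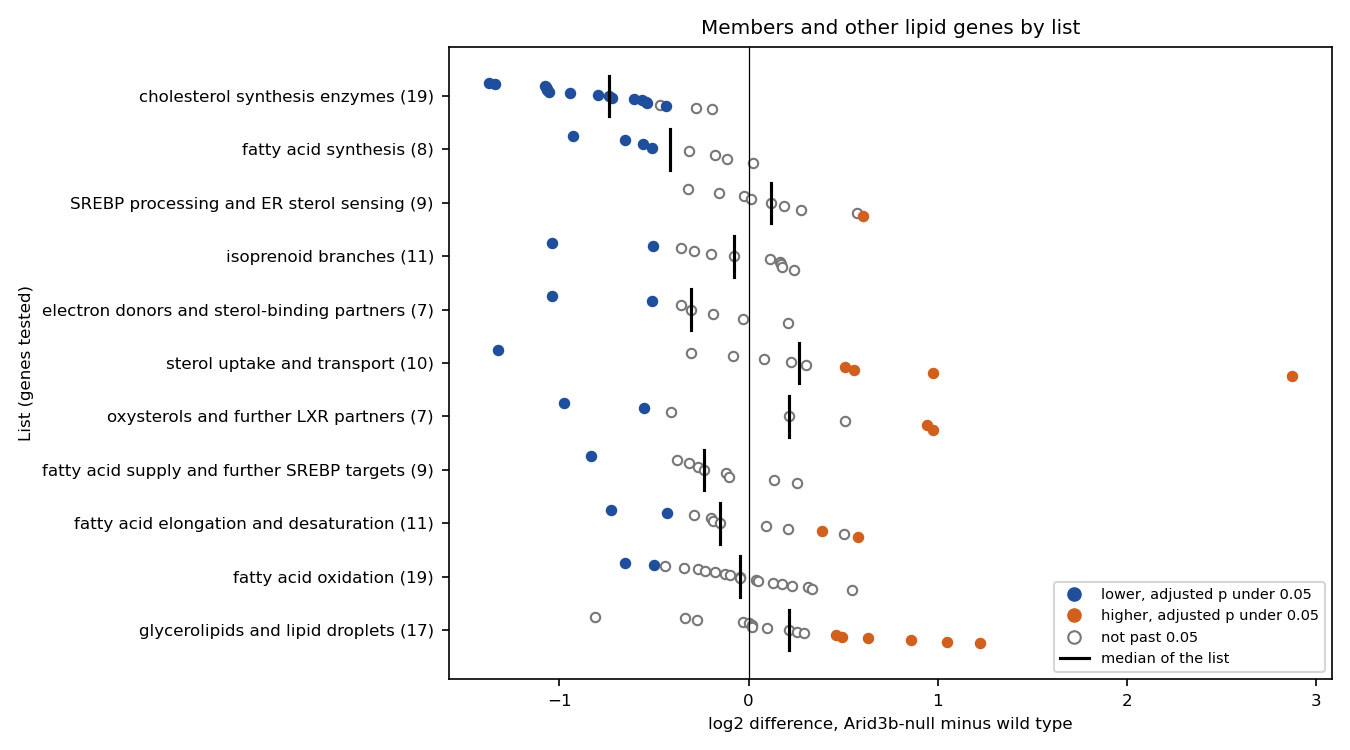
Each point is a gene's log2 difference, Arid3b-null minus wild type, in the list named at the left with the number of genes tested, and the black bar is the list's median. The cholesterol synthesis enzymes lie wholly below 0 with a median of -0.74, while glycerolipid and lipid droplet genes have a median of 0.21 and Vldlr stands apart at 2.87.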

How the data were processed

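RNA of 6 pools of trunks was hybridised in single colour (Cy3), per the labels' protocols. The deposited scanner files hold intensity values on a linear scale, from Agilent Feature Extraction 10.7.3.1 on design 026655 per the file headers: a background-subtracted processed signal, the median pixel signal and the local background. The deposited value table holds log2 values whose column medians are all 6.77, so the columns were scaled to each other and probes were not centred, by steps not given in the sources used here; it was an alternative (r = 0.999 to 1.00 with the main values of each array across probes). Direction is by array and needs no dye.

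Probe accessions were named through a RefSeq table of GRCm38.p6, used for names only apart from the RefSeq promoter windows; 26424 of 39429 probes had 1 symbol, 0 had several and 13005 had none. For each array the 75th percentile of log2 processed signal was subtracted, outlier spots (100 to 169) became missing and repeat spots were averaged. Probes well above background on all 3 arrays of a group were tested (24420), and the brightest tested probe stood for its gene. Arid3b-null minus wild type was fitted with limma 3.58.1 (lmFit, eBayes) in R 4.3.3, two-sided, Benjamini-Hochberg over 19792 genes, threshold 0.05. The fit was run on simulated data with independent noise on each array and no slide effect. That run cannot show how the fit handles the pairing of arrays. The number of arrays limits the precision: 3 against 3 cannot go below 0.10 in an exact permutation test, so single-gene permutation tests were not used.

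Members, lists and tests were chosen with earlier results of these data known. Named were Arid3b, all members, with values on each array for those that passed and for SREBP and LXR genes, and up to 4 called genes of each other list by adjusted p. The 4 promoters printed follow the order of adjusted p. Array values of Lss, Lbr, Ebp, Stard4, Abca1 and Acly were added after they were seen. Each slide held the wild-type and Arid3b-null arrays of 1 replicate number, so the numbers pair the arrays, and the slide and the replicate block are the same fit. Deviations of same-numbered arrays from their group means correlated at 0.16, 0.39 and 0.28 across genes. The correlations of differently numbered arrays are not given. The main fit had no block. Faxdc2, Ch25h, Cyp27a1, Thrsp and Elovl3 had no tested probe. Alternatives were other scalings, background corrections, filters, probe rules, the block and each array left out. Results of some genes in the other lists are not reported here.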

Additional observations from a re-analysis of the deposited data

How the results depend on the processing

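The count of members that fell, 22, was 21 or 22 after quantile normalization, in the deposited value table (33 members, without Pmvk, Ebp, Nr1h2 and Scd2), under normexp with array-median backgrounds and with probes required to be well above background on all arrays, 23 with the probes of a gene averaged, 17 with median scaling (the array median in place of the percentile) and 19 with the replicate block, where 4776 genes were called in all against 5254. With the block the calls of Cyp51, Dhcr7 and Insig1 were lost and no other call of a member changed. Under normexp with spot backgrounds limma called 2 genes in all (2 higher, 0 lower), 0 members lower, 0 higher and 0 of the other lipid genes, although 32 of 37 members were negative and 15 members and 11 other genes had an unadjusted p under 0.05; Arid3b read -1.38 and did not pass. Spot background reached 34802 units on wild type replicate 3, against array medians of 42 to 44, the median of all genes was -0.22 against -0.039, and the cause was not tested. There Abcg1 read -0.0412, Npc1 -0.13, Rxra -0.0425, Elovl7 -0.52 and Lipe -0.71, opposite to their main direction. Without a filter on dim probes, where 32530 genes were tested, 11 members fell and 0 rose, with 12 other lipid genes and 2286 genes in all (998 lower, 1288 higher). The median difference of the members was -0.43 under normexp with array-median backgrounds and otherwise between -0.61 and -0.51. With 1 array left out, 11 to 19 members fell (11 without wild type replicate 1, 13 without wild type replicate 2) and 0 to 1 rose, 17 to 20 other lipid genes were called, and 2865 to 3935 genes in all (1204 to 2037 lower, 1661 to 2047 higher), the fewest without wild type replicate 1.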
